A study of Saccharomyces cerevisiae with 2 samples.

Results

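Budding yeast takes up zinc, stores it in the vacuole and releases it again through a small set of transporters, and 7 genes of that system are described here in 2 mRNA libraries of Saccharomyces cerevisiae. The genes are ZRT1, ZRT2, ZRT3, ZAP1, ZRC1, COT1 and ZPS1. They were chosen by gene name, with earlier results of these data known. All 7 were found among the 6603 open reading frames (ORFs) that the files list. Their reads were counted in a strain with wild-type TRA1 (CY2706) and in a strain with the tra1-L3733A allele (CY3003), with 1 library per strain. Tra1 is a large subunit of the SAGA and NuA4 histone acetyltransferase complexes, and the series asks how expression differs with the substitution. Both strains were in YP, a rich medium, with 2% glucose at 30 °C and were harvested at an A600 of 2.0. The labels name no other allele and no zinc treatment for either strain.

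Zinc enters the cell through Zrt1, a high-affinity importer of the plasma membrane, and Zrt2, a low-affinity one. Zrc1 and Cot1 move zinc into the vacuole, where excess metal is held, and Zrt3 moves it back out. Zap1 is a transcription activator that is most active when zinc is scarce. It binds zinc-responsive elements upstream of its target genes, which include ZRT1, ZRT2, ZRT3, ZRC1, ZPS1 and ZAP1 itself. Zap1 can also repress ZRT2 when zinc is very scarce. COT1 also takes part in tolerance of cobalt.

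The zinc-responsive element was searched in the 500 bases before each start codon of the R64 genome (RefSeq), as ACCTT, then any base, then AAGGT. The element reads the same on both strands, so 1 search covers both. Within these windows 6 of the 7 genes held a match with at most 1 mismatch, against 1.96% of 6008 coding genes. These 6 are the genes named above as Zap1 targets. The difference from that share thus follows from the choice of genes and is not a separate result. An exact match lay before ZRT1 and before 0.150% of coding genes. Among the further Zap1-activated genes described below, ZRG17 and MCD4 also had an exact match. DPP1 and IZH1 each had a match with 1 mismatch, and the rest of that list, FET4 and ADH4 among them, had none. The matched sites are shown because they are the sequences by which Zap1 is known to recognise its targets, with capitals for bases that match the element and a lower-case letter for the mismatch.
ZRT1, -319 to -309: ACCcTCAAGGT
ZRT1, -204 to -194: ACCTTGAAGGT
ZRT2, -311 to -301: ACCcTAAAGGT
ZRT2, -262 to -252: ACCTTTAgGGT
ZRT3, -155 to -145: ACCTTAAgGGT
ZAP1, -144 to -134: ACCcTAAAGGT
ZRC1, -174 to -164: gCCTTGAAGGT
ZPS1, -329 to -319: ACCTTCAgGGT
ZPS1, -314 to -304: ACCcTGAAGGT

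Positions count back from the base before the start codon, which is -1. COT1 had no match in this window. ZRT1, ZRT2 and ZPS1 each held a pair of matches, and those of ZPS1 lay closest together. The sites of ZRT2 and ZAP1 at -311 and -144 have the same 11 letters. A match describes the letters only, and these data do not measure binding.

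**Figure D1:**
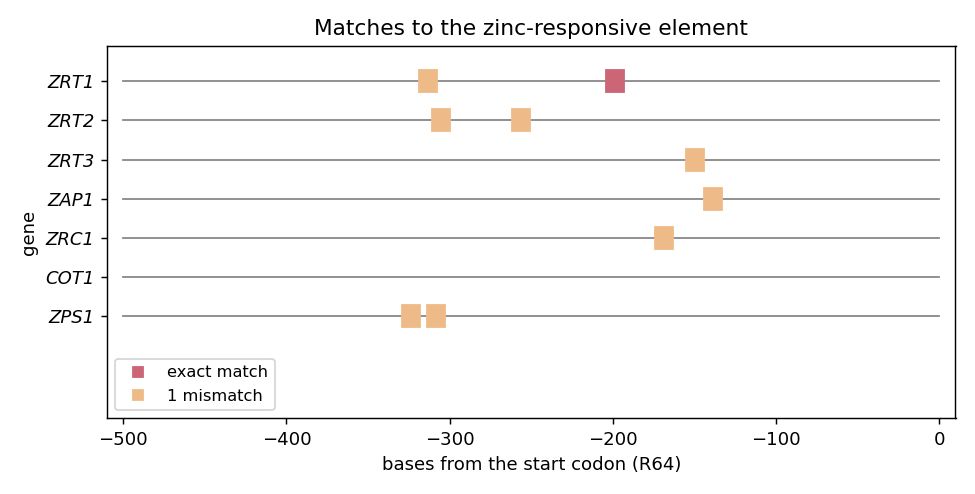
Positions of matches to the zinc-responsive element in the 500 bases before the start codon of each gene (x axis, bases from the start codon in R64). Dark blocks are exact matches and light blocks have 1 mismatch. ZRT1 holds the exact match, at -204, and COT1 holds none.

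The 300 bases before the start codon are given for both plasma membrane importers, since ZRT2 was the member whose reads differed most between the libraries and ZRT1 is its closest counterpart in function. Capitals mark matches to the element with at most 1 mismatch. Coordinates are R64, with ZRT1 on the forward strand at chrVII:20678-20977 and ZRT2 on the reverse strand at chrXII:404063-404362. The farther match of each gene lies beyond these bases.
ZRT1: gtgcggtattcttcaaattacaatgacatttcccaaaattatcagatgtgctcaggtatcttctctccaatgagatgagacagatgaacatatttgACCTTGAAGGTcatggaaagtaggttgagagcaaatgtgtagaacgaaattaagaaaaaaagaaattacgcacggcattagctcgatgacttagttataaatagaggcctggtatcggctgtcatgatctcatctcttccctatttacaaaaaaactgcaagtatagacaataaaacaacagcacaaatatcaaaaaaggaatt
ZRT2: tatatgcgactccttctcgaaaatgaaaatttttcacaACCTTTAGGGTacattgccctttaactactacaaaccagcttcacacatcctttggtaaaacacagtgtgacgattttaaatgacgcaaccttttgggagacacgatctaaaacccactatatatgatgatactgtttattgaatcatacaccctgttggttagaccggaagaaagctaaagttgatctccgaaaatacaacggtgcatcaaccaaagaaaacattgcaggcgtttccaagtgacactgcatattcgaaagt

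The libraries held 11564964 (TRA1) and 9970836 (tra1-L3733A) counts, with medians of 481 and 373 reads per ORF. Levels below are reads per kb of ORF and per 1000000 scaled reads, with 95% exact Poisson intervals. With 1 library per strain there is no test: each ratio of tra1-L3733A to TRA1 has a 95% exact (Clopper-Pearson) counting interval, which does not cover the spread between cultures, so a ratio compares these libraries and not the genotypes. An ORF was called higher or lower when its reads summed to 20 or more, the libraries differed by 1.5-fold or more and the interval left out 1. Of 6248 ORFs with enough reads, 2.80% were called higher and 5.46% lower, or 175 and 341 ORFs, against 91 and 515 with scaling by total counts and 98 and 500 with scaling by lane reads. The TRA1 transcript had a ratio of 0.526, but a substitution in the protein gives no check of the labels at the level of reads.

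Of the 7 genes, ZRT2 was lower in the tra1-L3733A library and the other 6 were not called in either direction. With backgrounds of 5.46% lower and 2.80% higher, the count of 1 lower and 0 higher is the description of a single gene, not of a group. The median log2 ratio of the 7 was 0.06, beside -0.002 over all ORFs with enough reads. A positive log2 ratio was found for 4 of them and a negative one for 3. Summed over the 7 genes the TRA1 library had 7444 reads and tra1-L3733A had 5768, which gives a ratio of 0.962 (0.929 to 0.996). Without ZRT2 the sums were 6309 and 5240 reads, a ratio of 1.03 (0.994 to 1.07).

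**Figure D2:**
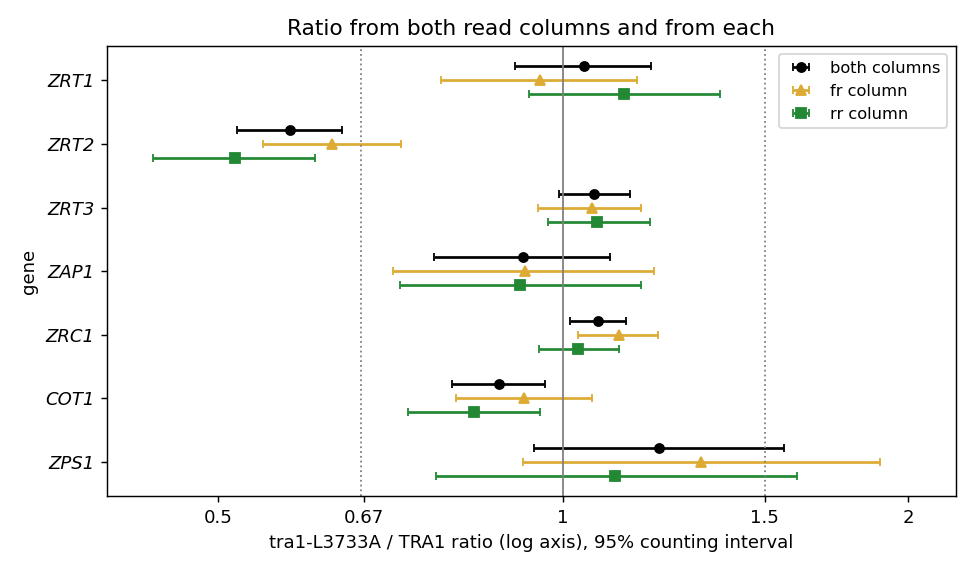
Ratio of tra1-L3733A to TRA1 for each gene (x axis, log scale) with its 95% counting interval, from both read columns summed (circles), the fr column (triangles) and the rr column (squares). Dotted lines mark 1.5-fold in either direction. The ratio of ZRT2 lies below 0.67 in all of these, and those of the other 6 genes lie between the dotted lines.

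ZRT2 (YLR130C, chromosome XII, 402795 to 404063 as the files give it) had 1135 reads in TRA1 against 528 in tra1-L3733A. Its level per length was 74.8 (70.5 to 79.2) in TRA1 and 43.2 (39.6 to 47.0) in tra1-L3733A. These intervals lie far apart, with the TRA1 library the higher one. The ratio was 0.577 (0.520 to 0.641), a log2 ratio of -0.79. Among the 6248 ORFs, 148 had a lower log2 ratio, or 2.37% of them. In RNA from a whole culture, fewer cells with the transcript and less of it per cell cannot be told apart. The fr column held 614 and 311 ZRT2 reads, a ratio of 0.629 (0.547 to 0.722). The rr column held 521 and 217, a ratio of 0.517 (0.439 to 0.607). Both columns thus gave a ratio past the 1.5-fold line, and their intervals overlap. The rr ratio of 0.517 lies just below the interval from the summed reads (0.520 to 0.641).

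ZRT1 (YGL255W, VII, 20978 to 22108), the high-affinity importer, had 467 and 392 reads. Its level per length was 34.5 (31.5 to 37.8) in TRA1 and 36.0 (32.5 to 39.7) in tra1-L3733A. The intervals overlap almost wholly, and the ratio was 1.04 (0.909 to 1.19), so a change of 1.5-fold lies outside the counting interval. Set against each other inside a library, where no scaling between libraries enters, ZRT2 stood at 2.17 times ZRT1 per length (1.94 to 2.42) in TRA1 and at 1.20 times (1.05 to 1.37) in tra1-L3733A. The intervals of this quotient do not overlap. The transcript level of the low-affinity importer was thus above that of the high-affinity one in both libraries, and by less in tra1-L3733A.

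The genes of vacuolar zinc storage were close to equal in both libraries. ZRC1 (YMR243C, XIII, 754837 to 756165) had 2695 reads in TRA1 and 2329 in tra1-L3733A, and its levels per length of 169.5 and 181.8 were the highest of the 7 genes in each library. Its ratio was 1.07 (1.01 to 1.13). COT1 (YOR316C, XV, 906233 to 907552) had 1078 and 763 reads, levels of 68.3 and 60.0 and a ratio of 0.879 (0.800 to 0.965). Both ratios fall short of 1.5-fold. The intervals exclude 1, on opposite sides, but that of ZRC1 includes 1 with total counts (0.948 to 1.06), lane reads (0.953 to 1.07), rr reads only (0.952 to 1.12) or the ORF span trend removed (0.988 to 1.11), and that of COT1 with fr reads only (0.807 to 1.06). Within a library COT1 stood at 0.403 times ZRC1 per length (0.375 to 0.432) in TRA1 and at 0.330 times (0.304 to 0.358) in tra1-L3733A. The share of COT1 beside ZRC1 was therefore smaller in the tra1-L3733A library, beyond counting error. ZRT3 (YKL175W, XI, 118798 to 120309), the vacuolar exporter, had 1635 and 1403 reads, levels of 90.4 and 96.3 and a ratio of 1.07 (0.991 to 1.15). ZRT3 kept nearly the same level beside ZRC1, at 0.533 times (0.501 to 0.567) in TRA1 and 0.529 times (0.495 to 0.566) in tra1-L3733A.

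ZAP1 (YJL056C, X, 330425 to 333067), which encodes the activator, had 303 reads in TRA1 and 225 in tra1-L3733A. It had the lowest level per length of the 7 genes, 9.58 (8.53 to 10.7) and 8.83 (7.72 to 10.1), and 9.86% and 9.22% of the ORFs with enough reads lay below it. The ratio was 0.922 (0.772 to 1.10). ZPS1 (YOL154W, XV, 34657 to 35406), a gene for a cell surface protein that Zap1 strongly activates when zinc is scarce, had 131 and 128 reads. Its level was 14.6 (12.2 to 17.3) in TRA1 and 17.7 (14.8 to 21.1) in tra1-L3733A, with a ratio of 1.21 (0.943 to 1.56). These intervals overlap. The interval of the ZPS1 ratio is the widest of the 7 and holds both 1 and 1.5. Equal levels and a 1.5-fold difference thus both lie within the counting interval of this ratio.

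**Figure D3:**
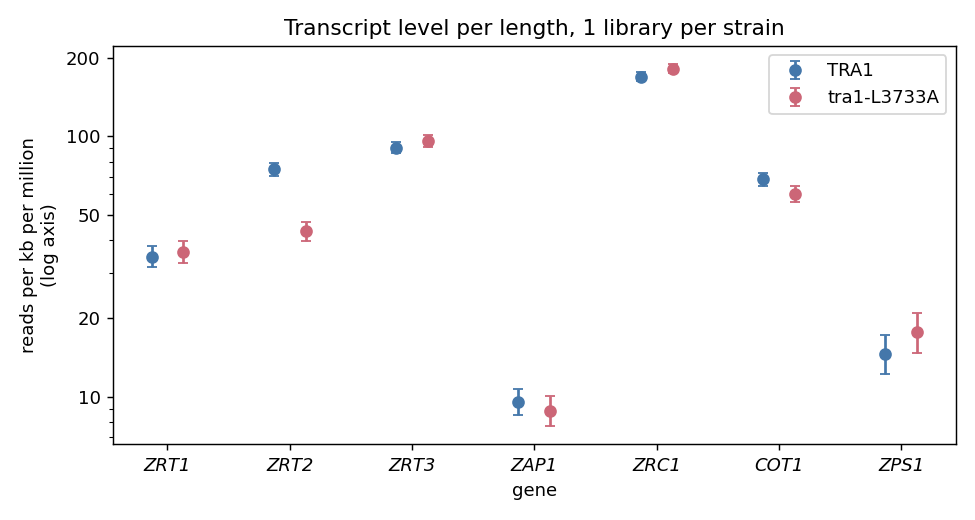
Transcript level of each gene in reads per kb per 1000000 scaled reads (y axis, log scale) in the TRA1 and the tra1-L3733A library, with 95% Poisson counting intervals. ZRC1 is highest and ZAP1 lowest in both, and ZRT2 goes from 74.8 to 43.2.

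In order of level per length, the TRA1 library ran from ZRC1 through ZRT3, ZRT2, COT1, ZRT1 and ZPS1 to ZAP1. The tra1-L3733A library had the same order except that ZRT2 came after COT1. In TRA1 the intervals of the neighbours ZRT2 and COT1 (64.2 to 72.5) overlap, so their order there is not set beyond counting error. In tra1-L3733A the interval of COT1 (55.8 to 64.4) lies above that of ZRT2, while the intervals of ZRT2 and ZRT1 just touch. All other neighbours in either order have intervals that do not overlap. As a share of the reads of the 7 genes, ZRT2 held 15.2% (14.4 to 16.1%, exact binomial) in TRA1 and 9.15% (8.42 to 9.93%) in tra1-L3733A. ZRC1 held 36.2% (35.1 to 37.3%) and 40.4% (39.1 to 41.7%).

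**Figure D4:**
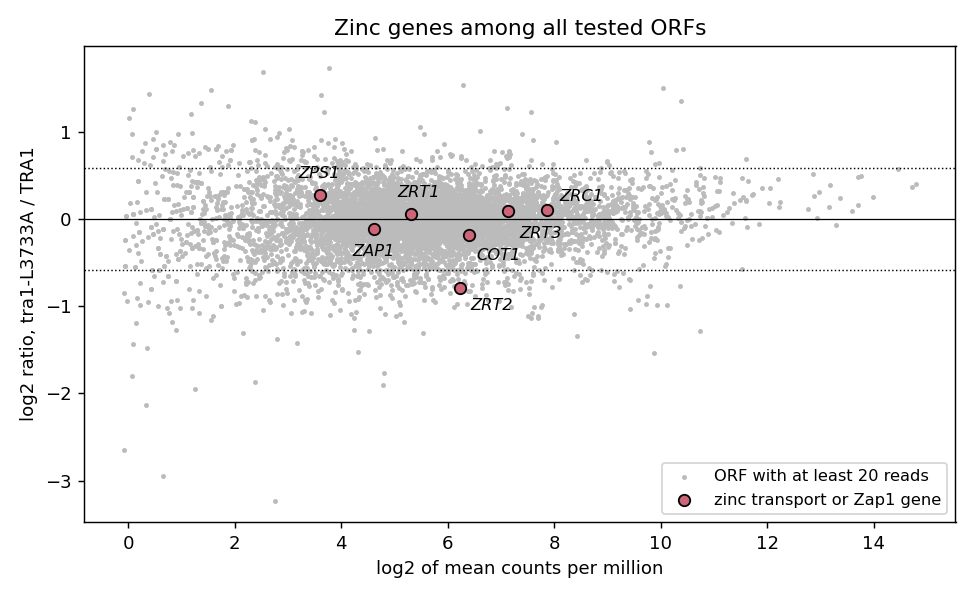
Log2 ratio of tra1-L3733A to TRA1 (y axis) against the log2 of mean scaled counts per 1000000 (x axis) for 6248 ORFs with at least 20 reads, with the 7 genes marked. Dotted lines are 1.5-fold. ZRT2 lies at -0.79, below the lower line, and the other 6 lie between the lines.

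The counts of these genes can be told apart from those of related genes. Each of the 7 is a single coding exon in R64, and all 7 ORF spans in the files equal the R64 spans, although the start coordinate is the same in 1 of them, and the files' coordinates were not mixed with those of R64. All 35-base words of the 7 coding sequences, the length of the reads, occur once in the genome. None of the 7 overlaps another listed ORF. Reads were summed without strand, so a transcript from the opposite strand of an ORF would be counted with it. The proteins of the family pairs are less distinct than the reads: by global alignment of the translated R64 sequences, Zrt1 and Zrt2 were identical at 45.1% of 348 aligned residues, and Zrc1 and Cot1 at 61.3% of 416. Among the nearest listed ORFs on either side of the 7 genes, YMR244W beside ZRC1 was called higher at 1.89 (1.26 to 2.86) on 42 and 64 reads. SFG1 beside COT1 was called lower at 0.635 (0.542 to 0.742) on 479 and 245 reads. Neither neighbour of ZRT2 was called.

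Other genes of zinc handling gave 1 call higher and 4 lower among 30 genes, all with enough reads, beside 2.80% higher and 5.46% lower over all ORFs. These genes too were listed with earlier results of these data known. Of 7 further transport genes, FET4 and ATX2 were lower and 0 were higher. FET4, a low-affinity plasma membrane transporter of iron that also carries zinc and is a Zap1 target, had 536 reads in TRA1 and 246 in tra1-L3733A, and its ratio was 0.570 (0.488 to 0.664). Its log2 ratio was -0.81. ATX2, a Golgi protein of manganese balance in the same family as the Zrt proteins, was at 0.629 (0.524 to 0.754) on 361 and 183 reads. With ZRT2 this made 2 lower of the 5 ZIP family genes, ZRT1, ZRT2, ZRT3, YKE4 and ATX2, beside 5.46% of all ORFs. With so few genes, this describes ZRT2 and ATX2 and not the family. The genes for transporters of the endoplasmic reticulum had ratios somewhat above 1. YKE4 was at 1.27 (1.18 to 1.38), MSC2 at 1.26 (1.12 to 1.42) and its partner ZRG17 at 1.22 (1.08 to 1.39), all short of 1.5-fold. MMT1 and MMT2, mitochondrial carriers linked to iron, were at 0.771 (0.651 to 0.912) and 0.978 (0.858 to 1.12). The 6 cation diffusion facilitator genes, ZRC1, COT1, MSC2, ZRG17, MMT1 and MMT2, had 0 calls.

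Of 14 further genes that Zap1 is known to activate, 1 was called higher and 2 lower, with a median log2 ratio of -0.18, beside 2.80% higher, 5.46% lower and a median of -0.002 over all ORFs. FET4 and ZRG17 are on this list too. NRG2, a transcription repressor, was at 0.606 (0.440 to 0.827) on 127 and 62 reads. VEL1 was the higher gene at 1.78 (1.02 to 3.18), on only 23 and 33 reads, and 6.64% of its 35-base words occur elsewhere in the genome, so its value is uncertain. PST1, a cell wall protein, was at 1.38 (1.35 to 1.41) and ICY2 at 0.691 (0.579 to 0.824), neither past 1.5-fold. Of the 14, 8 had a ratio under 1 and 6 a ratio over 1, so they did not share a direction. ADH4, the alcohol dehydrogenase gene next to ZRT1 and a target of Zap1, was chosen after its values were seen. It was at 0.772 (0.685 to 0.870) on 728 and 453 reads, short of 1.5-fold.

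The IZH genes encode membrane proteins of zinc balance, and 1 of 4 was called lower, beside 5.46% of all ORFs. IZH4 was at 0.594 (0.380 to 0.911) on 69 and 33 reads, and at 0.703, not called, with fr reads only. IZH1, which overlaps YDR491C, was at 0.832 (0.771 to 0.897), IZH2 at 1.14 (1.01 to 1.29) and IZH3 at 0.907 (0.820 to 1.003). Of 9 genes for zinc-dependent enzymes 0 were called, with a median log2 ratio of -0.04. The vacuolar aminopeptidase gene LAP4 was at 0.704 (0.657 to 0.754) and the vacuolar phosphatase gene PHO8 at 0.792 (0.744 to 0.843). The superoxide dismutase gene SOD1 was at 1.20 (1.18 to 1.23) and the aldolase gene FBA1 at 1.11 (1.11 to 1.12). When libraries were scaled by their total counts instead, LAP4 (0.658) and ICY2 (0.646) were called lower and VEL1 (1.66) was no longer called, and the same held for lane reads.

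**Figure D5:**
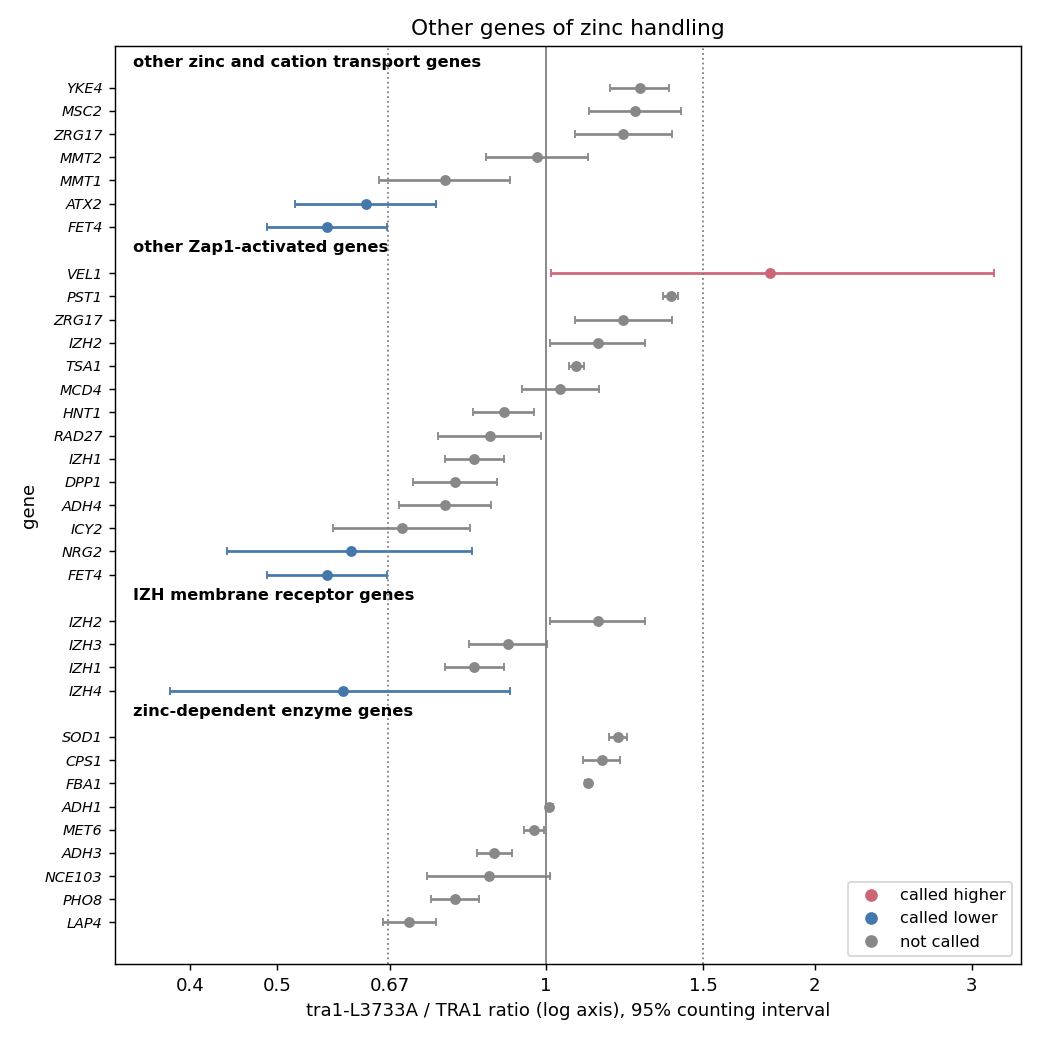
Ratio of tra1-L3733A to TRA1 (x axis, log scale) with 95% counting intervals for other genes of zinc handling, grouped by list. Blue points were called lower, red higher and grey not called, and dotted lines mark 1.5-fold. FET4 and ZRG17 appear in 2 lists, as do IZH1 and IZH2.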

How the data were processed

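Messenger RNA from 2 yeast strains was read as 35-nucleotide reads on 1 Illumina Genome Analyzer II lane each, giving 13014880 (TRA1) and 11156078 (tra1-L3733A) reads, per the labels' protocols. The aligner was Novoalign, per the submitters' processing notes, of a version not given in the sources used here, and neither build nor annotation is given there. The deposited counts per ORF stand in columns fr and rr, which the sources do not define. They were taken as read directions and summed, without strand. A deposited column of coverage signal equals reads per base in all 13206 entries and was not used further.

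For scaling, TMM factors (trimmed mean of M-values) were computed in edgeR 4.0.16 under R 4.3.3, and the factor was 1.03 in TRA1 and 0.967 in tra1-L3733A. Log2 ratios add 0.5 reads to each count. Intervals came from scipy 1.17.1 and cover counting error only. They treat reads as independent, but several reads can come from 1 molecule, so they may be too narrow even for that error. The size rule was tested on simulated data with counting error only and with planted changes larger than 1.5-fold. That test does not cover the spread between cultures or changes near 1.5-fold. Sequences came from R64 (RefSeq) by locus tag, and no coordinate of R64 was combined with the files' own. All 37 distinct listed genes were found by name. The members and lists were chosen with earlier results of these data known. Named are all members, every gene of a list of up to 7, and from longer lists the 4 with the interval bound farthest from 1 and all called genes. Zap1-activated genes with a match to the element are named for that match too. A neighbouring ORF is named only where called or overlapping. Alternatives changed the scaling (DESeq2 1.42.0 size factors among them), read column, read minimum, fold, overlapping ORFs and trends on ORF span or GC content.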

Additional observations from a re-analysis of the deposited data

How the results depend on the processing

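ZRT2 was called lower in 12 of 13 alternatives, with ratios of 0.517 to 0.629. The exception was a fold threshold of 2, where 0 of the 7 genes were called lower. None of the other 6 genes was called in any alternative. Their ratios ran from 0.821 (COT1) to 1.32 (ZPS1), and the ratios of ZRT1 and ZRT3 changed sides of 1 in 3 and in 1 of the alternatives. The median log2 ratio of the 7 genes was -0.066 with fr reads only, and -0.04 and -0.03 with scaling by total counts and lane reads, which moved the median of all ORFs to -0.10 and -0.09. Over all ORFs, scaling by total counts gave 91 higher and 515 lower calls, lane reads 98 and 500, a fold of 2 gave 20 and 57, and the alternative fold under 1.5 gave 670 and 902. Of 156 counts for the other lists, 19 moved by more than 1.5 times or to or from 0, 9 up and 10 down, most of them with the fold threshold. Smaller changes, from 2 to 3 lower calls, are not among the 19. VEL1 was not called under total counts, lane reads, fr reads only, the minimum of 100 reads or a fold of 2. IZH4 was not called with fr reads only or at a fold of 2, nor were FET4, ATX2 and NRG2 at a fold of 2. ICY2 was called lower under total counts, lane reads, fr reads only, the removed GC trend and the alternative fold under 1.5. The cause of these shifts was not tested. The removal of the GC trend was chosen after seeing the data and used the 5899 ORFs with an R64 coding sequence. No paired analysis was possible because each strain has 1 library. Depth limits ZPS1 and ZAP1 most.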
